A study of Homo sapiens with 4 samples.

Results

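TFIIH is the general transcription factor that opens promoter DNA for RNA polymerase II, and the same complex opens damaged DNA in nucleotide excision repair. It was described here through the 10 genes that encode its subunits, in RNA sequenced from K562-U2AF1 S34F cells in 4 libraries. These genes were chosen by the counts of an entry named GTF2H2, which was counted only in the libraries treated with SF1-8, so that entry's difference is given as a description and supports nothing by itself. The other subunits were included because they belong to the same complex, whatever their values. An entry is a row of the deposited table, that is a locus assembled from reads or taken from the annotation, and every entry that names a subunit was taken. The 10 symbols held 11 entries of the 64873 in the table, and all 11 passed the filter on low counts, which left 26167 entries with a gene name; the GTF2H2 entry seen only with SF1-8 passed through its SF1-8 counts.

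K562 is an erythroleukemia line, and every library, the controls included, came from K562 that overexpressed U2AF1 with the S34F change, with no library of cells without it. U2AF1 recognises the end of introns, and SF1-8 is a small molecule directed at its UHM domain. Treated cells received 30 uM SF1-8 for 48 h and control cells received DMSO, with 2 libraries per group. Nothing in the sources used here says that the 2 libraries of a group came from separate cultures, so a p-value measures the spread between these libraries, which may be technical. Total RNA was depleted of ribosomal RNA before sequencing, and in such bulk RNA fewer cells of a type and less RNA per cell cannot be told apart.

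The depth of the 4 libraries ranged from 45522905 deposited counts (DMSO 1) to 67554610 (SF1-8 1). Markers of the line were present in all 4 libraries, with a summed level of 325 and 330 FPKM (fragments scaled by transcript length and library size) with DMSO and of 300 and 321 FPKM with SF1-8 over 11 genes. The fibroblast list (COL1A1, COL1A2, COL3A1, DCN, LUM, FBN1, PDGFRB and THY1) summed to 10.3, 4.94, 2.64 and 0.729 FPKM in DMSO 1, DMSO 2, SF1-8 1 and SF1-8 2. Of those 8 genes, 6 were lower with SF1-8 at an unadjusted p under 0.05 in edgeR, beside 2.54% of all entries tested. None passed the adjusted test, which 0.0420% of all entries passed. COL1A1 was lower without reaching the unadjusted threshold (edgeR, unadjusted p = 0.0634), and THY1 had a positive log2 fold change of 0.15. LUM was listed at 0 in both SF1-8 libraries. Summed T cell markers gave 4.25 to 6.14 FPKM, mostly CD3D, monocyte markers gave 4.23 to 5.84 FPKM, nearly all LYZ, and B cell markers gave 0.354 to 0.502 FPKM. The part of the fibroblast difference in the values of the TFIIH genes was not tested.

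TFIIH has a core that carries the DNA-opening enzymes and a detachable kinase module. In the core, ERCC3 (XPB) is the translocase that drives DNA opening at promoters and ERCC2 (XPD) is the helicase needed for repair, while GTF2H1 to GTF2H5 are the subunits that scaffold and regulate them. GTF2H2 encodes the core subunit that binds ERCC2 and stimulates its helicase. The kinase module, also called the CDK-activating kinase, joins CDK7, its cyclin CCNH and the assembly factor MNAT1, and it phosphorylates both the tail of RNA polymerase II and the cell cycle kinases.

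GTF2H2 lies in a duplicated part of chromosome 5 together with the protein-coding copy GTF2H2C and the pseudogene GTF2H2B, which bears on how its reads can be assigned. In GENCODE 29 the coding sequences of GTF2H2 and GTF2H2C have the same length of 1188 bases (395 codons and the stop) and differ at 4 bases, which makes them 99.66% identical. Positions are counted from 1 at the A of the start codon, with the base of GTF2H2 first: A397G, A453G, G706C and G912A. The coding part of exon 8 holds both of the first differences, at positions 365 to 470, and is shown to let a reader see how little separates the copies, with the differing bases in capitals. The transcript sequences are those of GENCODE 29 on hg38, and GTF2H2 is read from the minus strand at chr5:71055352-71055457 and GTF2H2C from the plus strand at chr5:69572445-69572550.
GTF2H2: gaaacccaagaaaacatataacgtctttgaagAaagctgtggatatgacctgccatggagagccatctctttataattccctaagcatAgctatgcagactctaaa
GTF2H2C: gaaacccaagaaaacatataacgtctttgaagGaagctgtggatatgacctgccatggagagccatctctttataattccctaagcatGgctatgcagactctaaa

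Of the 1089 windows of 100 bases in this coding sequence, 733 (67.3%) are identical in the pair. Over all transcripts of GTF2H2, 53.4% of the distinct 100-base stretches also occur in a transcript of another gene, most of them in GTF2H2C (43.2%) and GTF2H2B (31.3%). The share is 65.1% for GTF2H2C and 88.7% for GTF2H2B. No stretch is shared for ERCC3, GTF2H1, GTF2H3, GTF2H5 or CDK7, and 2.05% for ERCC2 and 0.566% for MNAT1. GTF2H4 shares 66.6% of its stretches with transcripts of VARS2, the gene next to it, and CCNH shares 14.6% with AC018754.1 and RASA1. How reads that match several places were counted is not given in the sources used here, so values of GTF2H2 and its copies are uncertain between them.

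GTF2H2 was named by 2 entries. The first, at chr5:71032670-71067676 on the minus strand, covers the annotated gene with its 14 annotated transcripts and 3 assembled ones. Its level was 6.37 and 6.45 FPKM with DMSO and 6.49 and 6.79 FPKM with SF1-8. Both SF1-8 libraries stood above both DMSO libraries, by a margin smaller than the gap between the SF1-8 replicates. The log2 fold change of SF1-8 against DMSO was 0.08 with an SE of 0.0838 and a 95% interval of -0.14 to 0.29, and the adjusted p was 0.97 in edgeR's quasi-likelihood test (unadjusted p = 0.408). For the annotated gene, a difference beyond the spread between replicates was not detectable.

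The second entry named GTF2H2, at chr5:71028614-71031938 on the minus strand, is the one that led to the choice of this complex. It is a single assembled transcript of 3325 bases with no annotated one. No gene of GENCODE 29 overlaps it on either strand, it begins 731 bases beyond the 3′ end of GTF2H2, and on its other side NAIP, an inhibitor of apoptosis and sensor of bacterial proteins, lies 3499 bases away. The count was 0 in DMSO 1 and DMSO 2, 921 in SF1-8 1 and 895 in SF1-8 2. With SF1-8 the level was 3.31 and 3.33 FPKM, and the entry's counts came to 19.4% and 18.7% of those of the annotated entry. Against a floor of 3 counts per DMSO library (0.0631 and 0.0476 CPM, counts scaled by library size), the 14.1 and 14.0 CPM with SF1-8 were at least 222-fold higher, taking the lower SF1-8 value over the higher floor. This difference is what chose the entry.

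**Figure D1:**
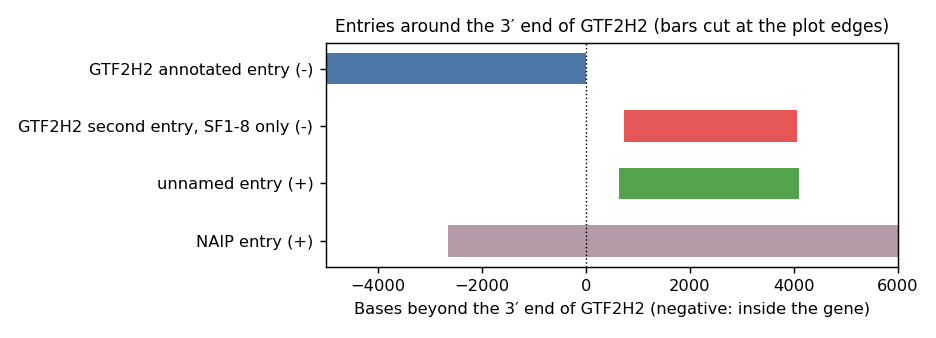
Entries around the 3′ end of GTF2H2, drawn to scale along the distance in bases from that end, with the strand of each entry in its label. The second GTF2H2 entry starts 731 bases beyond the gene and lies inside an unnamed entry of the opposite strand and inside a NAIP entry.

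The same interval held an entry on the plus strand, chr5:71028571-71032039, which has no gene name and spans the whole second GTF2H2 entry. Its counts were 555 and 849 with DMSO and 920 and 899 with SF1-8, or 2.76, 3.03, 3.17 and 3.21 FPKM. Reads were therefore counted in this interval in all 4 libraries, of these 2 entries for the plus-strand entry only with DMSO and for both with SF1-8. With SF1-8 the counts of the 2 entries differed by 0.109% and 0.445%. For the plus-strand entry, added to the table after the values were seen because entries without a name had been left out, the log2 fold change was 0.16 with an SE of 0.142 and an adjusted p of 0.97 in edgeR (unadjusted p = 0.3). Whether strand was used in the counting is not given in the sources used here, so reads of the 2 entries cannot be told apart.

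**Figure D2:**
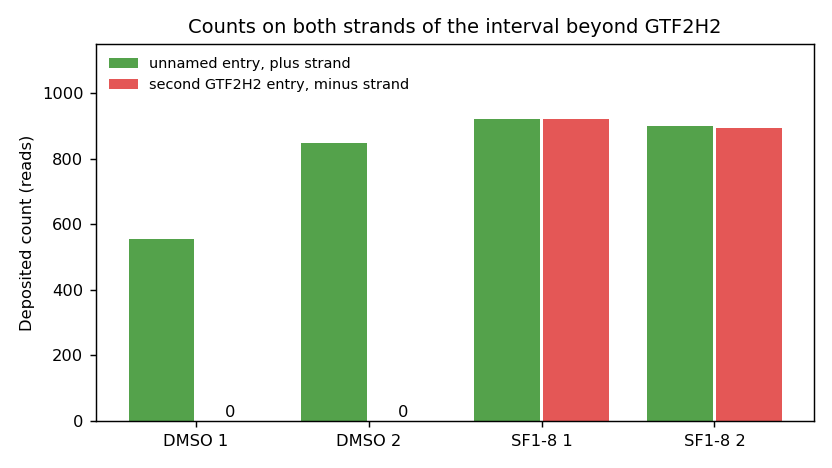
Deposited counts, not adjusted for library size, of the 2 entries that share the interval beyond GTF2H2, by library; bars start at 0. The plus-strand entry was counted in all 4 libraries, from 555 to 920, while the minus-strand entry was at 0 with DMSO and at 921 and 895 with SF1-8.

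The interval also lay within a plus-strand entry named NAIP at chr5:70964027-71035325, which had 10, 28, 6 and 6 counts in DMSO 1, DMSO 2, SF1-8 1 and SF1-8 2. Its log2 fold change was -1.80 with an SE of 0.927 and an adjusted p of 0.97 in edgeR. Beyond the ends of the copies the table held similar entries, picked out after their values were seen. Beyond GTF2H2C, an unnamed minus-strand entry at chr5:69595718-69599309 had 555, 765, 859 and 877 counts in the same order. Beyond GTF2H2B, an entry named AC146944 at chr5:70450570-70454452 on the plus strand had 551, 812, 790 and 896 counts. At both copies the entry was counted in all 4 libraries, at counts like those of the plus-strand entry beyond GTF2H2. The entry beyond GTF2H2C lies on the strand opposite to its gene, as that plus-strand entry does. Its interval falls inside the span of the plus-strand GTF2H2C entry, which runs past the end of its gene. The entry beyond GTF2H2B lies on the strand of its gene, as the second GTF2H2 entry does, and it was counted with DMSO too. The span of the GTF2H2B entry, on the same strand, holds that interval as well.

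The pattern of 0 counts with DMSO and counts above 0 in both SF1-8 libraries was shared by 511 entries, of which 505 carry a gene name, and the opposite pattern by 510 entries, of which 491 carry one. Most such entries were small, and only 1 entry in the first direction and 2 in the opposite one reached 100 counts in both libraries. GTF2H2 ranked first among the 505 by its lower SF1-8 level, a rank drawn from the values that chose the entry. Others high by that measure were AC126755 with 42 and 50 counts, FSCN1 with 49 and 39, and ITPR2 with 32 and 46. FSCN1 encodes the actin-bundling protein fascin and ITPR2 a calcium channel of the endoplasmic reticulum. Each of these 3 entries was also a single assembled transcript inside a larger entry that names the same gene.

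In the opposite direction the largest named entry was LINC01399, a long noncoding RNA gene, named here after its values were seen. Its plus-strand entry had 1903 and 2348 counts with DMSO and 0 and 0 with SF1-8. The LINC01399 entry of the minus strand had 309 and 405 counts with DMSO and 3073 and 2941 with SF1-8, so the plus-strand entry was lower and the minus-strand entry higher with SF1-8.

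With every entry of a symbol summed, only GTF2H2 gave another value than before, since it alone of the 10 has a second entry. The sum was 3220 and 4564 counts with DMSO and 5668 and 5682 with SF1-8. This gave a log2 fold change of 0.33 with an SE of 0.0821, an unadjusted p of 0.00984 and an adjusted p of 0.97 in edgeR. That sum contains the entry that chose the gene, so its p has no weight of its own.

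GTF2H2C, at chr5:69560208-69600744 on the plus strand, was at 5.85 and 6.36 FPKM with DMSO and at 6.89 and 7.71 FPKM with SF1-8. All of the SF1-8 values were above the DMSO values, and the log2 fold change was 0.28 with an SE of 0.109. This did not pass the adjusted test in edgeR (adjusted p = 0.97, unadjusted p = 0.048). The entry runs past the annotated end of the gene at position 69594723 and holds 2 assembled transcripts. It spans the interval of the unnamed minus-strand entry beyond GTF2H2C, so its value may not be that of the annotated gene alone. GTF2H2B covers 7.21% of an entry that also names GUSBP16 and AC146944. That entry was at 4.46 and 4.65 FPKM with DMSO and at 4.32 and 4.71 FPKM with SF1-8, with a log2 fold change of 0.01 (SE 0.0974). Its value is therefore not that of GTF2H2B alone. The counts of the entries that name GTF2H2, GTF2H2C and GTF2H2B were also summed, the second GTF2H2 entry included. The log2 fold change was 0.22 with an adjusted p of 0.97 in edgeR. Without the second entry it was 0.13 (SE 0.0846, edgeR adjusted p = 0.97). GTF2H2C_2 had no entry.

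The other neighbours gave no call. NAIP, in its main entry, was at 1.46 and 1.15 FPKM with DMSO and 1.16 and 1.33 FPKM with SF1-8, and a small NAIP entry of no stated strand lay at 1.08 to 1.57 FPKM. SERF1A was at 1.61, 1.76, 1.75 and 1.65 FPKM across the libraries in the same order. SERF1B was at 3.04 and 2.16 FPKM with DMSO and 1.96 and 1.82 FPKM with SF1-8, with a log2 fold change of -0.43 (SE 0.199, adjusted p = 0.97 in edgeR). OCLN, the tight junction protein occludin, was at or below 0.0835 FPKM in every library.

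Among the 10 entries that cover annotated TFIIH genes, none passed the adjusted test and none reached an unadjusted p under 0.05. Over all 26167 entries tested, edgeR called 11 at an adjusted p under 0.05, that is 0.0420%, of which 5 were higher and 6 lower with SF1-8. At an unadjusted p under 0.05 it called 4.33% of the entries, 1.78% higher and 2.54% lower with SF1-8. The second GTF2H2 entry was 1 of the 11, a difference that chose it and from which nothing is read here. The median log2 fold change of the 7 core genes was 0.06 and of the 3 genes of the kinase module 0.01, beside -0.01 over all entries tested.

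**Figure D3:**
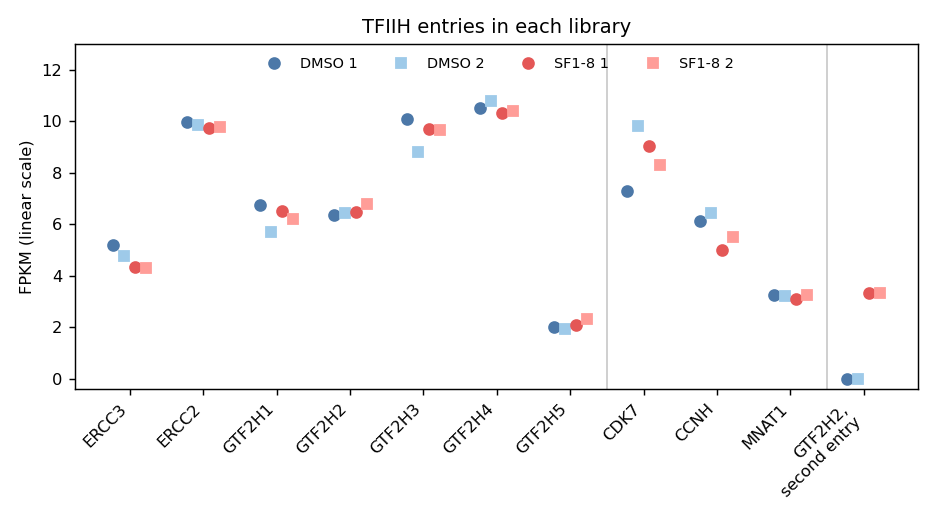
FPKM on a linear scale of each TFIIH entry in the 4 libraries, with the core subunits on the left, the kinase module in the middle and the second GTF2H2 entry on the right. Each point is 1 library; the second GTF2H2 entry is at 0 with DMSO and at 3.31 and 3.33 with SF1-8. Every other entry is above 0 in all 4 libraries, with the widest gap between replicates at CDK7.

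In the core, ERCC3 at chr2:127257290-127294166 was at 5.19 and 4.77 FPKM with DMSO and at 4.33 and 4.31 FPKM with SF1-8. The groups did not overlap, and the mean was 4.98 ± 0.296 FPKM with DMSO against 4.32 ± 0.0132 FPKM with SF1-8 (SD, n = 2), a change of -13.2% in the mean. The log2 fold change was -0.18 with an SE of 0.0843 and a 95% interval of -0.39 to 0.04, and it did not pass the test (edgeR, adjusted p = 0.97, unadjusted p = 0.0893). ERCC2 at chr19:45349837-45370918 was at 9.98 and 9.84 FPKM with DMSO and at 9.75 and 9.77 FPKM with SF1-8. Its FPKM values did not overlap between groups, but the group means differed by little, a change of -1.48%. From the counts the log2 fold change was 0.01, of the opposite sign, with a 95% interval of -0.19 to 0.20.

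GTF2H1, the core subunit that docks other transcription and repair proteins, at chr11:18322295-18367045, was at 6.74 and 5.68 FPKM with DMSO and at 6.50 and 6.20 FPKM with SF1-8. The DMSO libraries lay on either side of the SF1-8 libraries, and the log2 fold change was 0.06 (SE 0.0985). GTF2H3, a core scaffold subunit that pairs with GTF2H2, at chr12:123633739-123662604 in an entry that also names AC117503, was at 10.1 and 8.81 FPKM with DMSO and at 9.71 and 9.66 FPKM with SF1-8. Here too the groups overlapped, with a log2 fold change of 0.06 (SE 0.081).

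GTF2H4 encodes the subunit that holds ERCC3 and stimulates its ATPase. It shares its entry, chr6:30908207-30926459, with AL669830 and VARS2, a mitochondrial tRNA synthetase, and the gene covers 32.3% of that span. The entry was at 10.5 and 10.8 FPKM with DMSO and at 10.3 and 10.4 FPKM with SF1-8, so that its value is not that of GTF2H4 alone. Its log2 fold change was -0.02 (SE 0.078), with a 95% interval of -0.22 to 0.18. GTF2H5, the small subunit that stabilises the complex and works with GTF2H4, at chr6:158168350-158199344, was at 2.02 and 1.94 FPKM with DMSO and at 2.07 and 2.31 FPKM with SF1-8. Both SF1-8 values were the higher ones, and the log2 fold change was 0.17 (SE 0.118), with an adjusted p of 0.97 in edgeR.

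In the kinase module, CCNH at chr5:87318416-87412930 was at 6.12 and 6.43 FPKM with DMSO and at 5.00 and 5.51 FPKM with SF1-8. The groups did not overlap and the mean differed by -16.2%, the largest relative difference among the 10 entries. Its log2 fold change was -0.23 with an SE of 0.104 and a 95% interval of -0.49 to 0.03, and it did not pass the test (edgeR, adjusted p = 0.97, unadjusted p = 0.0753). On the opposite strand an entry of RASA1, a Ras GTPase-activating protein, overlaps 73520 bases of the CCNH entry, with 3203, 3364, 3347 and 4923 counts beside the 2351, 3455, 2778 and 2957 of CCNH in the same order of libraries. The RASA1 count was highest in SF1-8 2, and its part in the CCNH values was not tested.

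CDK7, the kinase itself, at chr5:69234795-69277429, was at 7.27 and 9.81 FPKM with DMSO and at 9.02 and 8.31 FPKM with SF1-8. The DMSO libraries differed by a factor of 1.35, the widest gap between replicates among the subunits, and both SF1-8 values fell between them. The log2 fold change was 0.04 (SE 0.191), and its 95% interval, -0.45 to 0.53, was the widest of the 10. MNAT1, which tethers the kinase pair to the core, shares its entry at chr14:60734742-61083733 with AL160236 and SLC38A6, a gene of an amino acid transporter family, and covers 67.4% of the span. The entry was at 3.23 and 3.20 FPKM with DMSO and at 3.10 and 3.23 FPKM with SF1-8, with a log2 fold change of 0.01 (SE 0.0888).

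**Figure D4:**
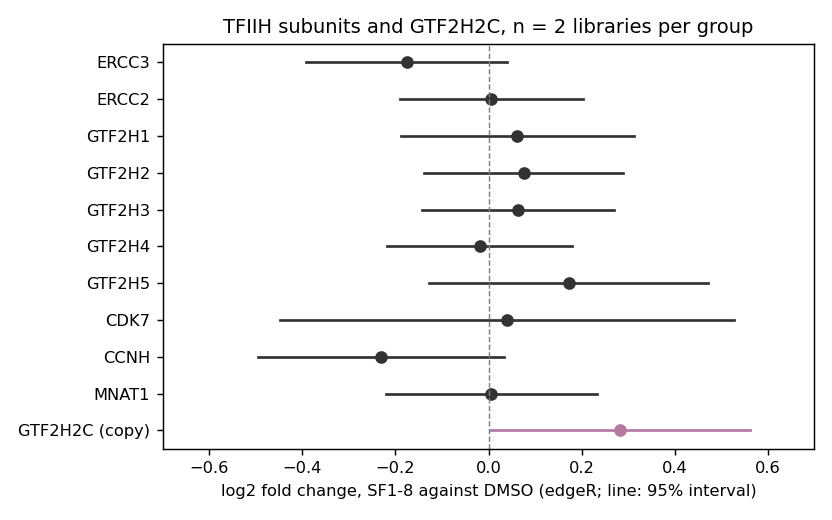
Log2 fold change of SF1-8 against DMSO for the annotated entry of each TFIIH subunit and for GTF2H2C, from edgeR; points are estimates and lines 95% intervals, with 2 libraries per group. All 10 subunit intervals include 0, from -0.23 for CCNH to 0.17 for GTF2H5.

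By FPKM, 4 of the 10 annotated entries had both SF1-8 libraries below both DMSO libraries (ERCC3, ERCC2, GTF2H4 and CCNH) and 2 had both above (GTF2H2 and GTF2H5). Over all entries tested, 20.0% had both below and 14.2% had both above. For GTF2H1, GTF2H2, GTF2H3, GTF2H5, CDK7 and MNAT1, the larger FPKM difference between replicates of a group exceeded the difference between the group means. For a single gene, the smallest two-sided p of an exact permutation test of 2 against 2 libraries is 0.333.

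The levels of the annotated entries, which FPKM scales by length, spread over the complex. Averaged over the 4 libraries, the order was GTF2H4 (10.5 FPKM), ERCC2 (9.84 FPKM), GTF2H3 (9.57 FPKM), CDK7 (8.60 FPKM), GTF2H2 (6.53 FPKM), GTF2H1 (6.28 FPKM), CCNH (5.77 FPKM), ERCC3 (4.65 FPKM), MNAT1 (3.19 FPKM) and GTF2H5 (2.08 FPKM). Neighbours in this order overlapped in their 4 library values at ERCC2 and GTF2H3, GTF2H3 and CDK7, GTF2H2 and GTF2H1, GTF2H1 and CCNH, and CCNH and ERCC3. The steps from GTF2H4 to ERCC2, from CDK7 to GTF2H2, from ERCC3 to MNAT1 and from MNAT1 to GTF2H5 lay outside those ranges. GTF2H3, GTF2H4 and MNAT1 are placed by the level of an entry that also names at least 1 other gene, and the level of GTF2H2 is uncertain between it and its copies.

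The factors that work with TFIIH were examined as 4 lists with 44 genes, each gene by its entry with the most counts. None of the 44 passed the adjusted test or an unadjusted p under 0.05 in edgeR. DESeq2 and edgeR with the replicate number as a block each gave 1 at the unadjusted threshold. Over all entries tested, edgeR called 0.0420% at the adjusted and 4.33% at the unadjusted threshold. With 44 genes, no difference from those shares is read here. By direction, 12657 of the 26167 entries tested had a positive and 13510 a negative log2 fold change. Lists of 7 to 17 genes are too small to tell their directions from these. Of the 8 general transcription factors, 6 had a positive and 2 a negative log2 fold change, with a median of 0.10. GTF2F1, a subunit of the factor that escorts RNA polymerase II to the promoter, had the smallest p of the list, at 15.2 and 16.5 FPKM with DMSO and 17.2 and 18.8 FPKM with SF1-8 (log2 fold change 0.21, SE 0.106, edgeR adjusted p = 0.97). The 12 subunits of RNA polymerase II had 6 positive and 6 negative values and a median of -0.00335. POLR2E, a subunit common to the nuclear polymerases, was at 18.9 and 24.2 FPKM with DMSO and 19.2 and 17.9 FPKM with SF1-8 (log2 fold change -0.20, SE 0.156, edgeR adjusted p = 0.97).

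The 17 partners in nucleotide excision repair had 8 positive and 9 negative values and a median of -0.0011. ERCC5, the nuclease that cuts on the 3′ side of damage and binds TFIIH, was in an entry that also names BIVM and BIVM-ERCC5, at 3.29 and 2.54 FPKM with DMSO and 3.22 and 3.71 FPKM with SF1-8 (log2 fold change 0.28, SE 0.135, edgeR adjusted p = 0.97). Among the 7 kinases that the module activates, 5 values were positive and 2 negative, with a median of 0.03. CDK9, the kinase that releases paused RNA polymerase II, was at 10.3 and 10.0 FPKM with DMSO and 12.1 and 10.6 FPKM with SF1-8 (log2 fold change 0.18, SE 0.106, edgeR adjusted p = 0.97). A small entry also named CDK9, at chr9:127792213-127792905 on the same strand beyond the main one and named here after its values were seen, had 0 and 40 counts with DMSO and 144 and 226 with SF1-8. That gave a log2 fold change of 3.10 (SE 1.20), with an unadjusted p of 0.0472 and an adjusted p of 0.97 in edgeR.

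**Figure D5:**
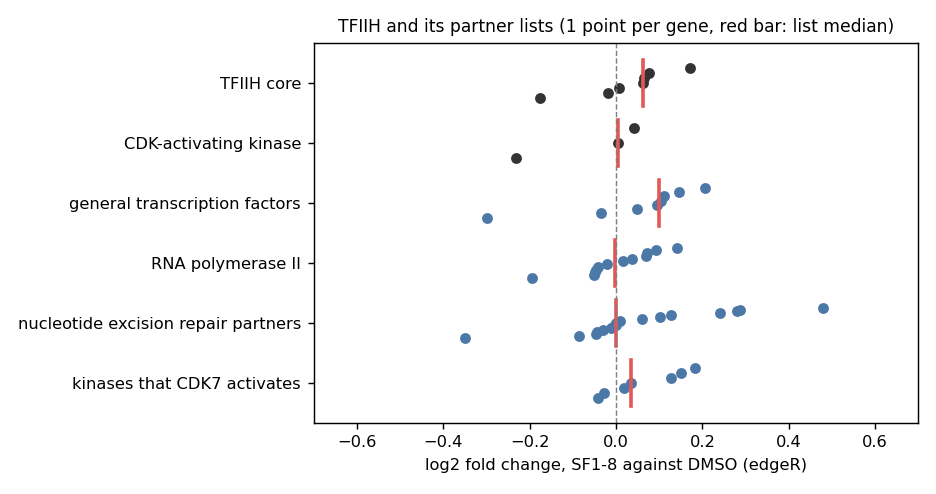
Log2 fold change of SF1-8 against DMSO from edgeR for each gene of TFIIH and of the 4 partner lists, 1 point per gene, with a red bar at the median of each list. Values lie between -0.35 and 0.48, and the medians of the 4 partner lists between -0.00335 and 0.0985.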

How the data were processed

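RNA-seq was measured in 4 libraries of K562-U2AF1 S34F cells, 2 with DMSO and 2 with SF1-8. The submitters' processing notes name cutadapt, FastQC, Bowtie2, HISAT2, StringTie and hg38, without versions. The authors deposited 1 table that gives every entry's FPKM and estimated count in each library, the entries coming from a merged assembly; an FPKM of 1e-04 stands for 0. Counts were whole numbers whose commonest value above 0 was 4. The way of counting, its use of strand and the handling of reads with several matches are not given in the sources used here.

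Estimated counts were tested with edgeR 4.0.16 (quasi-likelihood, TMM scaling, filterByExpr; R 4.3.3) over all entries with a gene name; the 2095 without one held 0.372% of counts and stayed out. P-values were adjusted by Benjamini-Hochberg over the 26167 entries kept, with 0.05 as the threshold. DESeq2 1.42.0 and limma 3.58.1, on log2(FPKM + 1) and log2(FPKM + 0.1), were alternatives, and the tests were tested on simulated data first. TMM factors were 0.973 to 1.05. An SE is the log2 fold change over the root of F. Depth was 45522905 to 67554610 counts per library; a count of 0 was set against a floor of 3 counts, which covers counting error only. GENCODE 29 gave gene positions and transcripts; 10 of 11 TFIIH entries shared a start or end with the gene of their symbol within 25 bases.

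The members and lists were chosen with earlier results of these data known. Named were every entry of the 10 subunits and of the GTF2H2 copies and neighbours; from each partner list the genes with an unadjusted p under 0.05, or else the 1 with the smallest p; the 5 named entries at 0 in both DMSO libraries with the highest lower SF1-8 FPKM, of which 1 is not reported here; and the marker genes.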

Additional observations from a re-analysis of the deposited data

How the results depend on the processing

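Over the whole table, where edgeR called 11 entries at an adjusted p under 0.05, DESeq2 called 143, edgeR with no filter on low counts 31, limma on log2(FPKM + 1) 0 and on log2(FPKM + 0.1) 0 (1425 and 1604 at an unadjusted p under 0.05), the replicate block 0 (971 unadjusted), and leaving out 1 library 0 to 30, with 0 without DMSO 1 (1341 unadjusted), 21 without DMSO 2, 30 without SF1-8 1 and 28 without SF1-8 2. Of the TFIIH entries 1 was called, the second GTF2H2 entry that was chosen by this contrast, against 0 in both limma fits, 0 with the block and 0 to 1 when leaving out a library, with 0 without DMSO 1. The fitted log2 fold change of that entry was 12.7 in edgeR, 2.11 and 5.10 in limma with the larger and the smaller pseudocount (adjusted p = 0.293 and 0.309), 12.7 with the replicate block (adjusted p = 0.122), and 12.7 to 12.8 when leaving out a library (adjusted p = 0.055 without DMSO 1); it was 0.22 with the copies summed and 0.16 for the opposite-strand entry, the last chosen after seeing the data. Since the entry is at 0 with DMSO, these values depend on the prior count or pseudocount and are no bound. The replicate numbers were shared by the groups in the labels. The deviations of replicate 1 in the groups had a correlation of -0.0155 over entries. With 2 pairs, a common replicate effect was not visible. Whether libraries of the same number were handled together is not given in the sources used here. With the block 1 of the 44 partner genes had an unadjusted p under 0.05 in edgeR, against 0 without it. Apart from the second GTF2H2 entry, no adjusted call of a TFIIH entry or partner gene changed with the block.

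No annotated TFIIH entry was called under any alternative. The sign turned for MNAT1 (0.01 in edgeR) to -0.02 in both limma fits (-0.0157 and -0.0201), to -0.0402 with scaling by library totals and to -0.0265 and -0.0122 without DMSO 1 and without SF1-8 2, and for ERCC2 (0.01) to -0.0195 and -0.0212 in limma, -0.0406 by library totals and -0.0238 without DMSO 1. It turned for CDK7 (0.04) to -0.191 without DMSO 1 and -0.0227 without SF1-8 1, for GTF2H4 (-0.02) to 0.049 without DMSO 2 and for GTF2H1 (0.06) to -0.0137 without DMSO 2. Leaving out a library, MNAT1 ranged up to 0.0436, ERCC2 up to 0.0408, CDK7 up to 0.323 and GTF2H1 up to 0.148, and GTF2H4 down to -0.0796. The cause was not tested. ERCC3 stayed between -0.224 and -0.156 and CCNH between -0.304 and -0.148, with an unadjusted p under 0.05 for CCNH only with scaling by library totals. With 2 libraries per group, the 95% interval of each of these 10 entries included 0, which limits what the data can show about small differences. Where leaving out a library left 1 in a group, that library was assumed to vary like those of the other group. DESeq2 gave no adjusted p for 7203 entries.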

Other observations

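The arrangement beyond GTF2H2, with entries on both strands over nearly the same interval, was looked for in the whole table after the data were seen. There were 83 pairs of entries of opposite strands that each overlapped by at least 90%, and 40 of them reached 100 counts on some strand in some library. In 21 of the 40, 1 strand was at 0 in some library while the other had at least 100 counts, and in 8 of these both strands had at least 100 counts in another library. The number of pairs with 1 strand at 0 was 12 and 14 in the DMSO libraries and 13 and 10 in the SF1-8 libraries. Both strands had at least 100 counts in 14 and 15 pairs with DMSO and in 15 and 17 with SF1-8. Of these, 3 and 2 with DMSO and 4 and 6 with SF1-8 had counts within 5% of each other. The GTF2H2 pair was among them in both SF1-8 libraries.

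Switches of this kind also occurred between replicates of 1 group. The minus-strand entry of PCCB, a subunit of propionyl-CoA carboxylase, had 0, 0, 0 and 857 counts in DMSO 1, DMSO 2, SF1-8 1 and SF1-8 2, beside 639, 784, 675 and 856 on the plus strand. For ZNF808, a zinc finger gene, the minus-strand entry had 0, 346, 0 and 1427 counts beside 849, 976, 1396 and 0 on the plus strand. At GTF2H2 alone among the 8 pairs, both DMSO libraries had 1 strand at 0 and both SF1-8 libraries had both strands counted. The GTF2H2 entry was chosen by this pattern, so nothing is read from its place among the pairs. The LINC01399 entries of opposite strands, which also differed by group, were not among the 8 pairs.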
